A study of Arabidopsis thaliana with 12 samples.

Results

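ACS, ALDH2C4 and AT4G17260 are 3 Arabidopsis genes for enzymes that handle acetate, aldehydes and lactate, and they were followed here in seedlings that carry an insertion in a gene for another acetate enzyme. They were chosen by name, with earlier results of these data known. A probe set was taken as a member when the platform annotation assigned it to exactly 1 of these genes, which gave 1 probe set per gene, 3 genes of the 13350 that a probe set names alone. RNA of whole seedlings had been hybridised to 12 Affymetrix ATH1 arrays, on which short probes are grouped into probe sets that stand for transcripts. The study asked how organic acids and carbohydrates together act on gene expression.

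The 4 groups held 3 arrays each. The first was Col-7 untreated, a Columbia wild-type accession. The second was acn1-2 untreated, labelled ACN1-2, a line in the Col-7 background with a T-DNA insert in AT3G16910. The others were Col-7 and acn1-2 given 100 mM sucrose. The medium was agar with MS salts (pH 5.7). Growth followed 4 days of cold at 4 °C in the dark, took place at 20 °C in constant light, and reached a labelled stage of 0.70. Per the labels 3 pools of 1000 seedlings were made, and it is not stated that the replicates of a group came from separate cultures, so a p value here reflects the spread of these samples alone, possibly a technical one. The genotype rests on 1 insertion line, and whole seedlings mix all organs. AT3G16910 had 0 probe sets under its own name in the annotation, so its level was not analysed here.

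Acetate becomes usable to a plant cell when a synthetase joins it to coenzyme A. AT3G16910 encodes ACN1, the peroxisomal enzyme that does this for acetate entering the glyoxylate cycle, and ACS is the plastid acetyl-CoA synthetase, whose product can feed fatty acid synthesis. Acetate itself can arise from pyruvate when pyruvate decarboxylase forms acetaldehyde and an aldehyde dehydrogenase oxidises it. ALDH2C4 is a cytosolic aldehyde dehydrogenase known from the reduced epidermal fluorescence mutant, which oxidises sinapaldehyde and coniferaldehyde to sinapate and ferulate. AT4G17260 encodes lactate dehydrogenase, which reduces pyruvate to lactate and regenerates NAD+ when respiration is limited.

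The 12 arrays shared a scale, with median intensities from 41.0 to 47.2, and the number of arrays limits the precision. Replicate 3 of acn1-2 untreated and replicate 3 of Col-7 sucrose lay furthest from their own group means, at an SD over the tested probe sets of 0.245 and 0.203 on the log2 scale. For the actin control, signal at the 3' end over that at the 5' end, which can move with RNA quality, was 1.81 to 3.42 on the untreated arrays and 5.32 to 6.93 on the sucrose arrays. The GAPDH ratio ran the other way, from 0.958 to 1.45 untreated and from 0.819 to 0.92 with sucrose. For ubiquitin the media overlapped, with ratios from 1.92 to 2.605 untreated and from 1.859 to 1.996 with sucrose. A listed gene is called measured here when the annotation assigns a probe set to it alone. Of the 22746 probe sets kept, 8730 name no gene and 503 name several. A gene not measured in this sense may still have probes on the array. Of 7 green tissue markers listed, the 2 measured, RCA and PRK, summed to 4497.6 to 7850.4 untreated and 2374.3 to 3434.8 with sucrose. The 2 of 6 root markers measured, PYK10 and EXPA7, summed to 2108.6 to 3614.5 untreated and 2504.5 to 2999.6 with sucrose, and PYK10 makes up most of that sum. EXPA7 rose with sucrose in both lines (log2 change 0.45 and 0.35, limma adjusted p 0.0161 and 0.0431), while PYK10 changed by -0.24 and -0.13 and was not called. The dry seed marker PAP85, 1 of 5 listed, was lower on all acn1-2 arrays than on all Col-7 arrays of the same medium. It lay at 31.3 to 36.8 in Col-7 and 22 to 28.6 in acn1-2 untreated, and at 29.9 to 46.7 and 21.1 to 29.0 with sucrose. Its acn1-2 readings were all under 29.1, the mean intensity that a probe set needed to be tested. The lines did not overlap for 17.9% of all tested probe sets without sucrose and 14.2% with it. The PAP85 log2 differences of -0.49 and -0.57 between the lines were not called (limma adjusted p 0.23 and 0.544). The part of these values in the results below was not tested. Fewer cells of a type and less RNA per cell cannot be told apart in whole seedlings.

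The first question was whether ACS shifted in the line with the insertion in the gene of the peroxisomal acetate enzyme. Without sucrose, ACS read 171.2, 164.4 and 175.4 in Col-7 and 180.1, 197.2 and 139.1 in acn1-2, in intensity units. The acn1-2 arrays lay on both sides of the Col-7 arrays, so the groups overlapped. The means were 170.3 ± 5.55 and 172.1 ± 29.9 (SD, n = 3), and the log2 difference was 0.00 (SE 0.12, limma adjusted p 0.999). Its 95% interval ran from -0.27 to 0.27, or a change of the level from -16.9% to 20.4%. Without acn1-2 untreated replicate 3, the lowest array, the difference was 0.15 (adjusted p 0.64).

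With sucrose, ACS read 265.1, 235.6 and 233.0 in Col-7 and 234.2, 249.6 and 224.6 in acn1-2. These groups overlapped too. The means were 244.6 ± 17.8 and 236.1 ± 12.6 (SD, n = 3), and the log2 difference was -0.05 (SE 0.12, 95% interval -0.32 to 0.22, limma adjusted p 1). Averaged over both media, a contrast added after the data were seen, the difference was -0.02 with an interval from -0.21 to 0.16, and 0.05 without acn1-2 untreated replicate 3. As a change of the level in acn1-2, that interval runs from -13.8% to 12.1%.

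**Figure D1:**
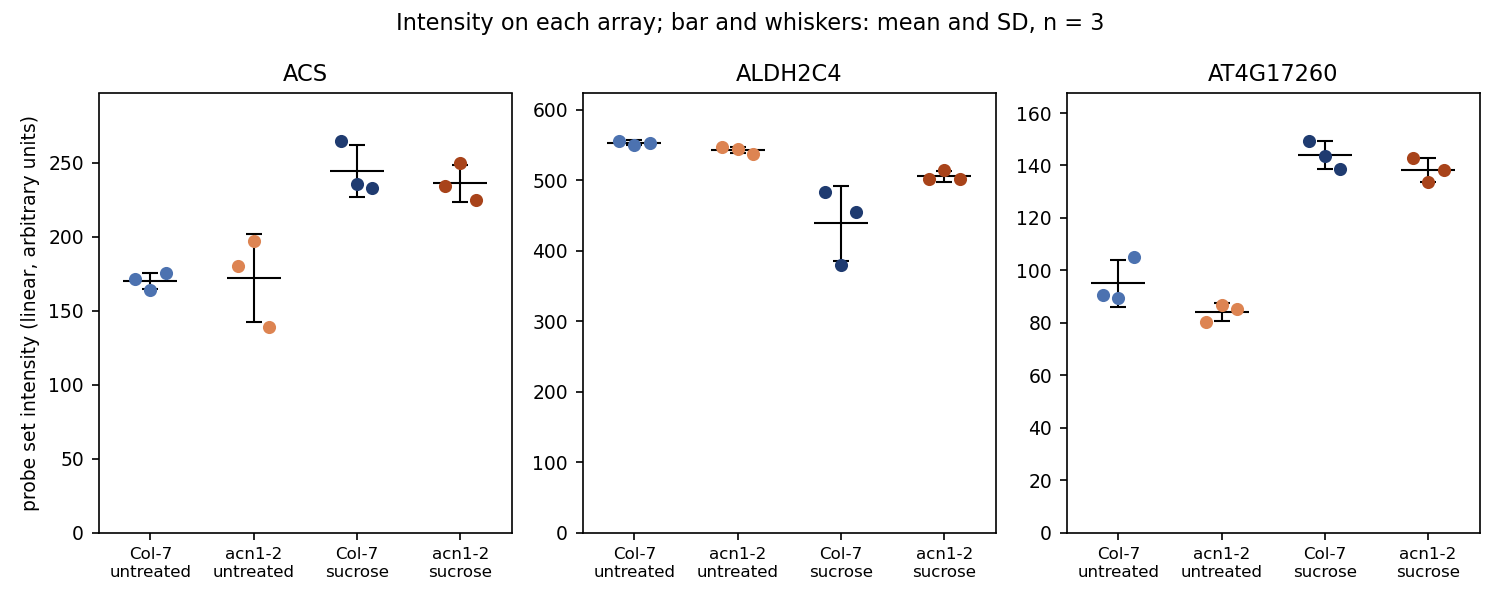
Intensity of the ACS, ALDH2C4 and AT4G17260 probe sets on each of the 12 arrays (points), with the group mean and SD (bar and whiskers, n = 3), on linear axes that start at 0. ACS and AT4G17260 are higher on all sucrose arrays than on all untreated arrays, and ALDH2C4 is lowest on Col-7 sucrose replicate 2, at 379.9.

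ALDH2C4 had nearly the same reading on all 6 untreated arrays. It read 556.6, 549.6 and 553.6 in Col-7 and 547.3, 544.1 and 537.9 in acn1-2. The acn1-2 arrays lay just below the Col-7 arrays without overlap. The means were 553.3 ± 3.51 and 543.1 ± 4.78 (SD, n = 3), a log2 difference of -0.03 (SE 0.10, 95% interval -0.24 to 0.19, limma adjusted p 0.924). Within Col-7 untreated the SD on the log2 scale was 0.009, and 0.465% of the tested probe sets had a smaller one there, against a median of 0.133 over all tested. In acn1-2 untreated the SD was 0.013, but in Col-7 sucrose it was 0.18. The limma SE of 0.10 draws on all 4 groups and on the spread of the other probe sets. It is thus wider than the spread of these 6 arrays alone. With only the groups compared in the fit, the SE was also 0.10.

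With sucrose, ALDH2C4 read 482.9, 379.9 and 455.2 in Col-7 and 501.7, 514.3 and 501.4 in acn1-2. All 3 acn1-2 arrays were above all 3 Col-7 arrays, and the Col-7 arrays were spread more widely, with a log2 SD of 0.18 against 0.021 in acn1-2. The means were 439.3 ± 53.3 and 505.8 ± 7.36 (SD, n = 3). The log2 difference was 0.21 (SE 0.10), and its 95% interval ran from -0.204% to 34.2% as a change of the level. It had an unadjusted limma p of 0.0528 and an adjusted p of 1, so it was not called. Without Col-7 sucrose replicate 2 the difference was 0.11. The mean over both media was 0.09, with an interval from -0.06 to 0.24, and 0.04 without that array.

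All 3 probe sets were bright enough to be tested, with every array above the filter on the mean of 29.1. AT4G17260, the lactate dehydrogenase gene, without sucrose read 90.6, 89.3 and 105.2 in Col-7 and 80.5, 86.8 and 85.2 in acn1-2. All acn1-2 arrays were below all Col-7 arrays. The means were 95.0 ± 8.83 and 84.2 ± 3.27 (SD, n = 3), a log2 difference of -0.17 (SE 0.09, 95% interval -0.38 to 0.03). The limma adjusted p was 0.418, so the difference was not called, and without Col-7 untreated replicate 3 it was -0.10.

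With sucrose, AT4G17260 read 149.5, 143.8 and 138.7 in Col-7 and 142.8, 133.8 and 138.4 in acn1-2. The groups overlapped. The means were 144.0 ± 5.40 and 138.3 ± 4.50 (SD, n = 3), and the log2 difference was -0.06 (SE 0.09, 95% interval -0.26 to 0.15, limma adjusted p 1). Over both media it was -0.11, with an interval from -0.26 to 0.03.

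In all, 0 of the 3 genes were called between the lines by limma in either medium, and 0 had an unadjusted p under 0.05. Over all 13764 probe sets tested, 0.545% were called without sucrose and 0.211% with it, and 14.4% and 4.78% had an unadjusted p under 0.05. The groups did not overlap for 2 of the 3 genes without sucrose and for 1 with it. Among all probe sets tested those shares were 17.9% and 14.2%. The members' median log2 difference was -0.03 without sucrose and -0.05 with it, where the median of all tested was 0.03 and 0.00. A difference missing the threshold does not show equal levels. The intervals above give the changes left possible under a spread pooled over all 4 groups.

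**Figure D2:**
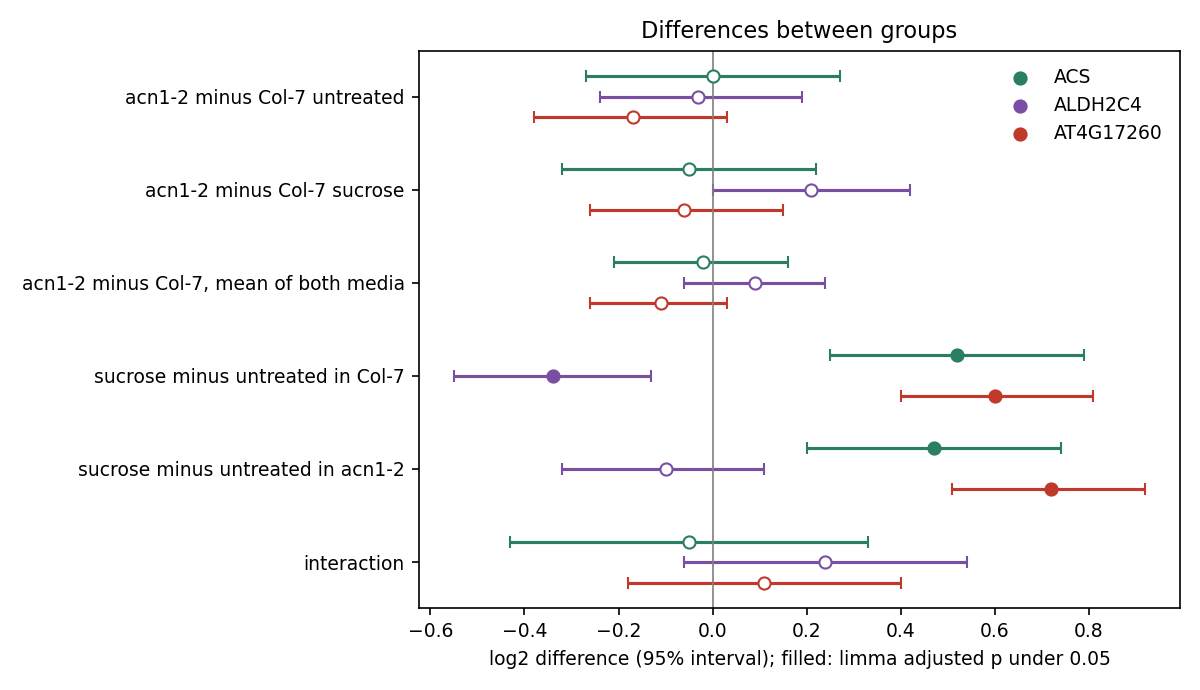
Log2 differences of ACS, ALDH2C4 and AT4G17260 with 95% intervals for each comparison; filled points had a limma adjusted p under 0.05. Every interval of a comparison between the lines reaches 0, while ACS and AT4G17260 lie above 0 for sucrose in both lines.

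The second question was how the 3 genes responded to sucrose in each line. ACS rose in both. In Col-7 its change was 0.52 on the log2 scale (SE 0.12, 95% interval 0.25 to 0.79, limma adjusted p 0.00365), a 1.43-fold rise. In acn1-2 it was 0.47 (SE 0.12, 95% interval 0.20 to 0.74, adjusted p 0.00592), a 1.39-fold rise. All sucrose arrays exceeded all untreated arrays within each line. Without acn1-2 untreated replicate 3 the change in acn1-2 was 0.32 and still called.

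AT4G17260 rose in both lines as well. The log2 change was 0.60 in Col-7 (SE 0.09, 95% interval 0.40 to 0.81, limma adjusted p 0.000181) and 0.72 in acn1-2 (SE 0.09, 95% interval 0.51 to 0.92, adjusted p 3.74e-05). These are 1.52-fold and 1.64-fold rises, and within each line the media did not overlap. Of all tested probe sets, 13.3% changed further upward in Col-7 and 11.9% in acn1-2.

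ALDH2C4 fell with sucrose in Col-7. Its log2 change there was -0.34 (SE 0.10, 95% interval -0.55 to -0.13, limma adjusted p 0.0117), a change of the level by -21.0%. That call rested on 1 array: without Col-7 sucrose replicate 2 the change was -0.24 and the adjusted p 0.0621. In acn1-2 the change was -0.10 (SE 0.10, 95% interval -0.32 to 0.11, adjusted p 0.393), which was not called. All 3 sucrose arrays of acn1-2 were nonetheless below all 3 untreated ones. The log2 SDs within acn1-2 were 0.013 untreated and 0.021 with sucrose, so the shared limma SE was wider than the spread of these arrays alone. The fall in Col-7 and the difference between the lines with sucrose share the same 3 Col-7 sucrose arrays.

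Of the 3 genes, 2 were called higher and 1 lower with sucrose in Col-7, where 25.9% and 24.3% of all tested probe sets were. In acn1-2, 2 were called higher, where 27.4% of all tested were, and 1 was not called, where 29.6% of all tested were called lower. Sucrose moved a large part of the array in both lines (50.2% and 56.9% called in either direction), so a call of a member is common here. Untreated and sucrose arrays did not overlap for any of the 3 genes in either line, as was so for 61.1% of all tested probe sets in Col-7 and 62.9% in acn1-2.

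**Figure D3:**
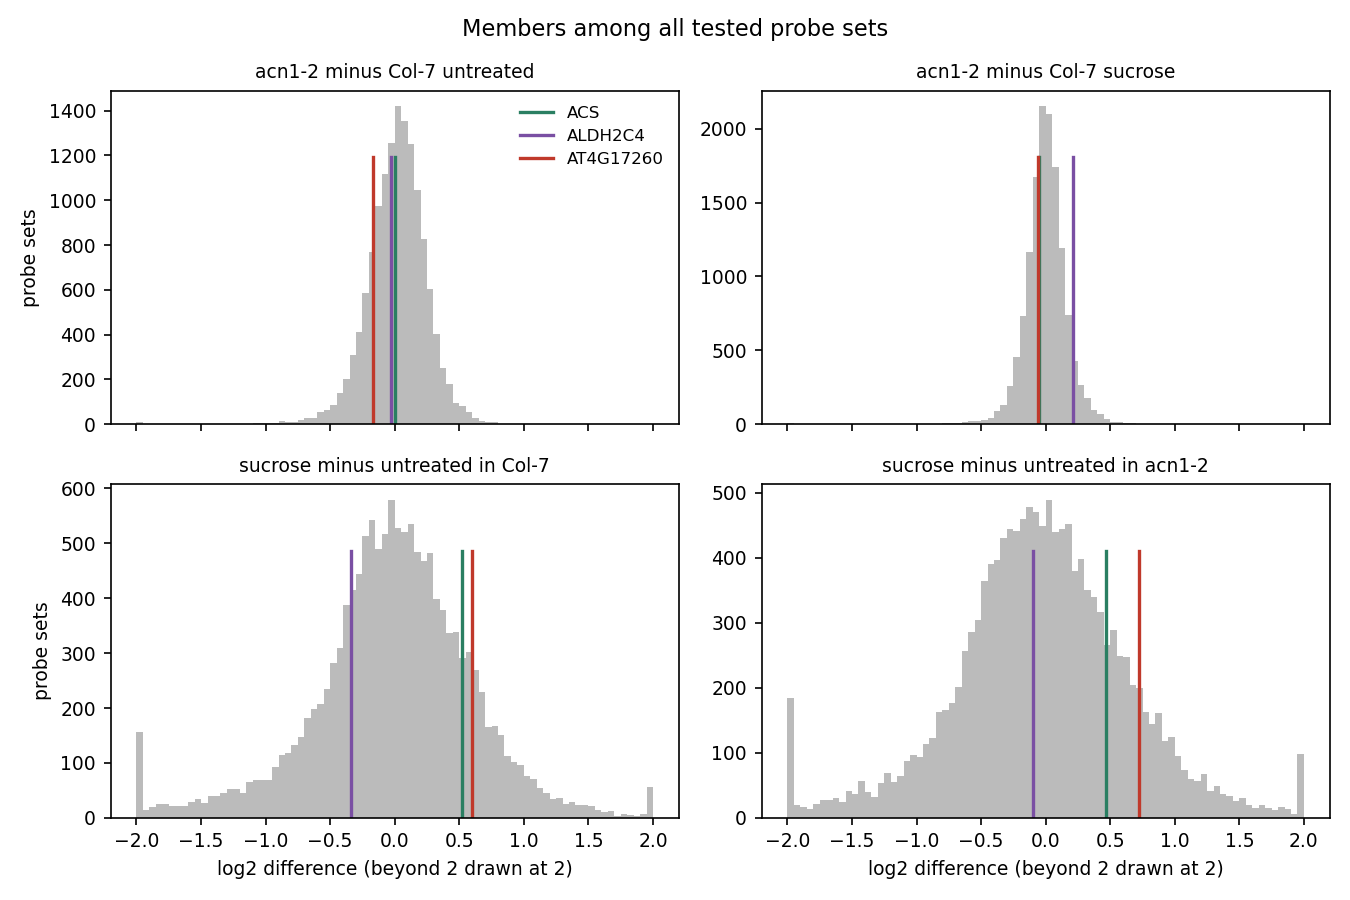
Distribution of the log2 difference over the 13764 tested probe sets in 4 comparisons (grey bars), with ACS, ALDH2C4 and AT4G17260 as vertical lines; values beyond 2 are drawn at 2. The lines of ACS and AT4G17260 nearly coincide for acn1-2 against Col-7 with sucrose. In that comparison ALDH2C4 lies above the upper quartile of 0.09, with 7.53% of the tested probe sets higher.

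The sucrose response was then compared between the lines by the interaction, the change in acn1-2 minus that in Col-7. It was -0.05 for ACS (95% interval -0.43 to 0.33, limma adjusted p 0.943) and 0.11 for AT4G17260 (95% interval -0.18 to 0.40, adjusted p 0.799). For ALDH2C4 it was 0.24 (SE 0.14, 95% interval -0.06 to 0.54), with an unadjusted limma p of 0.113 and an adjusted p of 0.576. Single arrays moved these values. The ALDH2C4 interaction was 0.14 without Col-7 sucrose replicate 2, that of AT4G17260 was 0.04 without Col-7 untreated replicate 3, and that of ACS was -0.20 without acn1-2 untreated replicate 3 and 0.06 without acn1-2 untreated replicate 2. Of the 3 genes 0 were called, as were 0.0581% of all tested, and 0 had an unadjusted p under 0.05, against 10% of all tested. That ALDH2C4 was called in Col-7 and not in acn1-2 is therefore not a shown difference between the lines.

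Ordered by mean intensity, ACS ran from Col-7 sucrose through acn1-2 sucrose and acn1-2 untreated to Col-7 untreated. Only the step from acn1-2 sucrose to acn1-2 untreated was called among neighbours that were compared. ALDH2C4 ran from Col-7 untreated through acn1-2 untreated and acn1-2 sucrose to Col-7 sucrose, and no step between neighbours was called. AT4G17260 ran from Col-7 sucrose through acn1-2 sucrose and Col-7 untreated to acn1-2 untreated. Its 2 steps between lines in the same medium were not called, and the middle step, between different lines and media, was not tested.

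The genes around the members were taken from 5 pathway lists given by locus. Of the 11 genes of acetate activation and acetyl-CoA supply, 5 were measured, and the other listed loci were not analysed here. Besides ACS these were subunits of ATP-citrate lyase, which makes cytosolic acetyl-CoA from citrate. Between the lines, 0.545% of all tested probe sets were called without sucrose and 0.211% with it. Of these 5 genes, 0 were called between the lines by limma in either medium, with medians of -0.16 and 0.02. With sucrose, 2 rose and 3 did not pass in each line, where 25.9% of all tested probe sets were called higher in Col-7 and 27.4% in acn1-2. One of the 2 was ACS itself. The second was ACLA-2, which read 243.0 ± 23.2 untreated and 352.7 ± 52.1 with sucrose in Col-7 (SD, n = 3). In acn1-2 it read 197.9 ± 20.4 untreated and 355.0 ± 20.6 with sucrose. Its log2 changes were 0.53 (SE 0.13, adjusted p 0.00381) and 0.85 (SE 0.13, adjusted p 0.000107). The 3 that were not called changed by -0.01 and 0.19 (ACLA-1), 0.08 and 0.16 (ACLB-1), and -0.11 and 0.05 (ACLA-3). The list medians were 0.08 in Col-7 and 0.19 in acn1-2, where all tested probe sets had 0.00 and -0.04.

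Of 14 aldehyde dehydrogenase genes, 8 were measured. With sucrose in Col-7, 4 rose, 2 fell and 2 did not pass, where 25.9% of all tested were called higher and 24.3% lower. In acn1-2, 4 rose, 0 fell and 4 did not pass, where 27.4% were called higher and 29.6% lower. Calls in either direction thus took in 4 of 8 in acn1-2, where 56.9% of all tested were called. The largest rises were those of ALDH10A8 and ALDH10A9, which oxidise betaine aldehyde and aminoaldehydes. ALDH10A8 rose by 1.01 (Col-7) and 1.29 (acn1-2) on the log2 scale (SE 0.13 each, limma adjusted p 4.99e-05 and 5.35e-06), from 315.1 ± 17.1 to 634.6 ± 43.4 and from 245.2 ± 50.6 to 591.3 ± 13.0 (SD, n = 3). ALDH10A9 rose by 0.75 and 0.92. ALDH3F1 rose by 0.70 and 0.61, and ALDH22A1 by 0.30 and 0.24. The call of ALDH22A1 ended without Col-7 sucrose replicate 2 in Col-7 (adjusted p 0.0613). In acn1-2 it ended without untreated replicate 1 (0.0852) or 3 (0.0555), without sucrose replicate 1 (0.134) or 2 (0.0678), and with the replicate block (0.0512).

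ALDH7B4, a stress-responsive aldehyde dehydrogenase also known as antiquitin, was the other gene of that family called lower with sucrose in Col-7. It read 511.2 ± 41.4 untreated and 384.7 ± 21.5 with sucrose there (SD, n = 3), and its log2 change was -0.41 (limma adjusted p 0.00402, SE 0.10). In acn1-2 its change was -0.24 with an adjusted p of 0.0543. Between the lines 0 of the 8 were called by limma in either medium, where 0.545% and 0.211% of all tested were. The medians of the 8 were -0.09 without and 0.04 with sucrose, and single differences ran from -0.38 to 0.24 and from -0.10 to 0.21. ALDH2C4 had the top value of that last range. The family's median sucrose change was 0.06 in Col-7 and 0.12 in acn1-2, where all tested probe sets had 0.00 and -0.04.

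Beside AT4G17260, 2 of the other genes on the lactate, ethanol and fermentation list were measured, making 3 of 12. PDC2, a pyruvate decarboxylase, read 82.8 ± 13.5 untreated and 169.8 ± 31.9 with sucrose in Col-7 (SD, n = 3). In acn1-2 it read 72.3 ± 16.7 untreated and 170.3 ± 26.2 with sucrose. Its log2 changes were 1.03 and 1.25 (SE 0.20 each, limma adjusted p 0.000919 and 0.000176). AT5G06580, a mitochondrial D-lactate dehydrogenase gene, changed by -0.14 and -0.29 and was not called. Thus 2 of 3 rose and 1 did not pass in each line, AT4G17260 being 1 of the 2, where 25.9% and 27.4% of all tested were called higher. The list medians of 0.60 and 0.72 are the changes of AT4G17260, where all tested had 0.00 and -0.04. Between the lines 0 of 3 were called by limma in either medium, where 0.545% and 0.211% of all tested were.

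The remaining lists were thinly covered by the annotation, and of all tested 24.3% were called lower with sucrose in Col-7 and 29.6% in acn1-2. Of 14 genes for plastid acetyl-CoA use in fatty acid synthesis, 2 were measured. AT4G16155, a dihydrolipoamide dehydrogenase of the plastid pyruvate dehydrogenase complex, fell with sucrose (log2 change -0.70 in Col-7 and -0.73 in acn1-2, SE 0.15 each, limma adjusted p 0.0022 and 0.00137). AT2G34590, of the same complex, was not called, at -0.11 and -0.16. The list of sinapate and early phenylpropanoid synthesis, in whose branch ALDH2C4 acts, held 17 genes. Only HCT, a shikimate hydroxycinnamoyl transferase, had a probe set assigned to it alone. HCT fell in both lines, with log2 changes of -0.32 (Col-7) and -0.48 (acn1-2; SE 0.09 each, limma adjusted p 0.0108 and 0.00065). Over these 2 lists 0 genes were called between the lines or for the interaction. The interaction was called for 0 of the measured genes on the other lists too. Over all tested probe sets, 0.545% and 0.211% were called between the lines and 0.0581% for the interaction. With shares so low, 0 calls among so few genes is no trait of these lists.

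**Figure D4:**
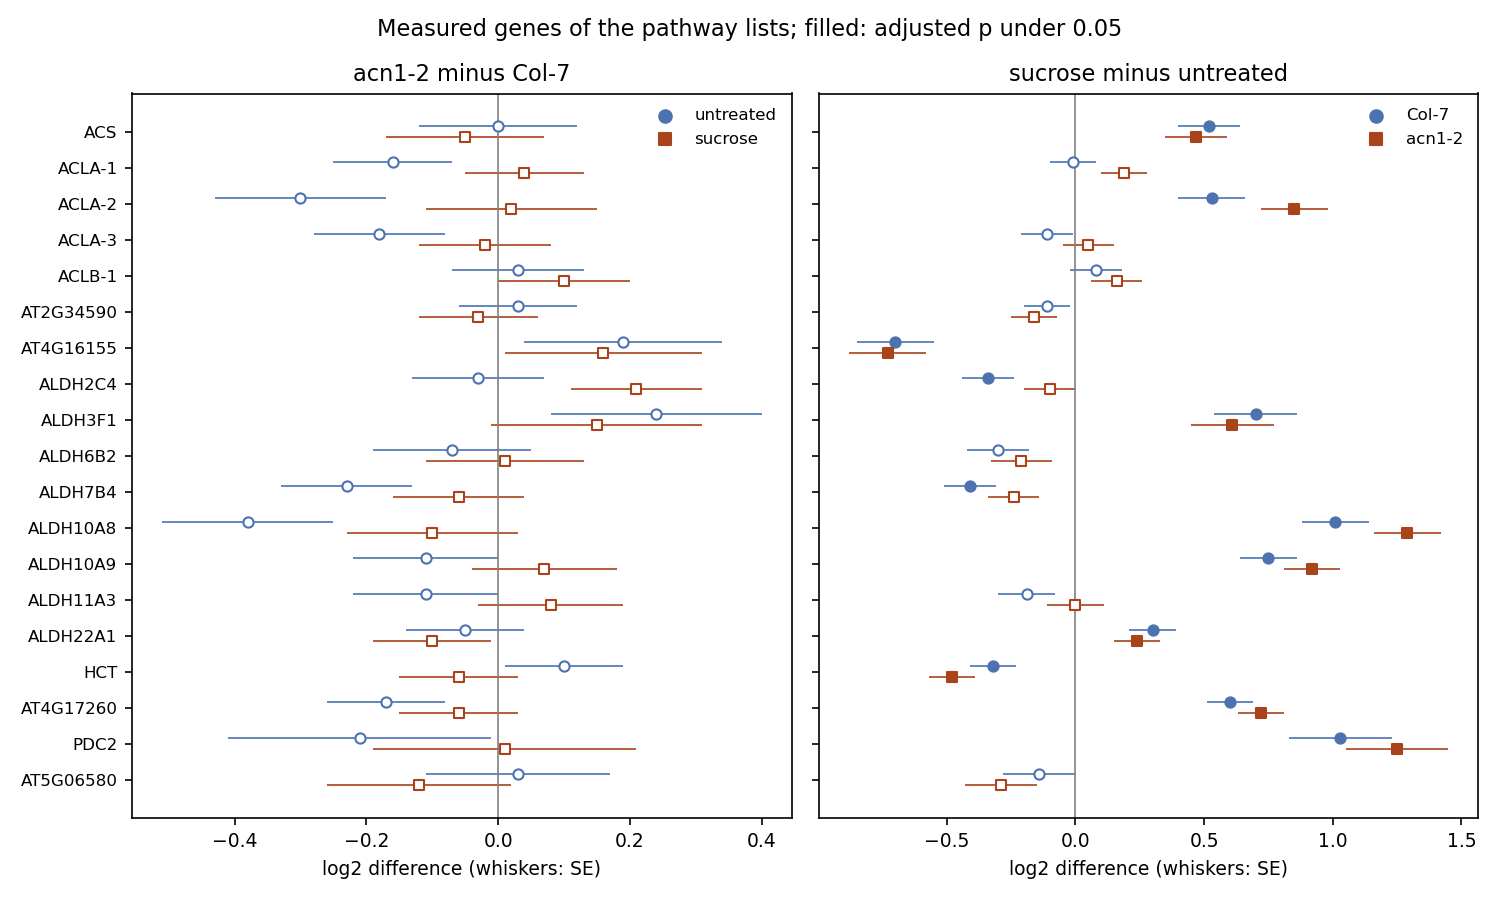
Log2 differences (points, whiskers SE) of the measured genes of the 5 pathway lists, between the lines in each medium (left) and for sucrose in each line (right); filled points had a limma adjusted p under 0.05. No point is filled on the left, and ALDH10A8 and PDC2 lie furthest right for sucrose.

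The genes whose pattern over the 12 arrays was most like that of each member were found by Pearson's r of log2 intensity among the 7407 tested probe sets that name 1 gene. The 12 arrays span both media, so each r includes the step between the media, and no p is given. For ACS they were AT2G44760 (r 0.977), AT4G11380 (r 0.967), AT5G17380 (r 0.966) and AT2G37400 (r 0.964). AT5G17380, an oxalyl-CoA decarboxylase gene, rose by 0.64 with sucrose in Col-7, and by 0.56 in the acn1-2 line. For AT4G17260 they were AT1G67750, a pectate lyase family gene (r 0.988), AT5G11770, a subunit of mitochondrial complex I (r 0.986), the chaperonin gene Cpn60beta2 (r 0.986) and AT5G02240 (r 0.985). These 4 rose in both lines, AT5G11770 by 0.60 and 0.66 and Cpn60beta2 by 1.49 and 1.72. Such rises follow from selecting genes by likeness to a member that rose. Over all tested probe sets, 25.9% were called higher with sucrose in Col-7 and 27.4% in acn1-2.

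ALDH2C4 had lower likeness values than the other members. Its nearest genes were AT3G57790 (r 0.917), AT2G29995 (r 0.909), AT1G34630 (r 0.896) and AT3G27100 (r 0.885). AT2G29995 shared the order of the groups, with 173.9 ± 9.18 in Col-7 untreated, 165.5 ± 19.3 in acn1-2 untreated, 147.8 ± 6.59 in acn1-2 sucrose and 116.2 ± 8.71 in Col-7 sucrose (SD, n = 3). It fell with sucrose in Col-7 (log2 change -0.58, limma adjusted p 0.000643) and changed by -0.16 in acn1-2 (adjusted p 0.231), and its interaction of 0.43 was not called (adjusted p 0.395). AT3G27100 shared the order too. AT3G57790 and AT1G34630 did not, with 122.8 and 85.9 in acn1-2 untreated and 120.4 and 85.1 in Col-7 untreated. AT1G34630 was called lower with sucrose in acn1-2 as well (-0.55, limma adjusted p 0.0139). These genes were selected for likeness to ALDH2C4 on the same arrays, so their patterns are no separate evidence about it.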

How the data were processed

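The members and lists were chosen with earlier results of these data known. The authors deposited 1 linear intensity per probe set and array for 22810 probe sets, scaled to a 2% trimmed mean of about 100.0 on each array; the labels' protocols describe biotin-labelled cRNA, and the summarising software and genome build are not given in the sources used here. From the deposited intensities, 64 control probe sets were left out, a floor was set at the 25th percentile of all values (14.4), and log2 was taken. The 13764 probe sets with a mean at or over the pooled 40th percentile (29.1) were tested.

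One model of the 4 groups was fitted by lmFit and eBayes (limma 3.58.1, R 4.3.3). Tests were two-sided, with 95% intervals and Benjamini-Hochberg adjustment over all tested probe sets, and called means an adjusted p under 0.05. The fit was tested on simulated data with independent noise, and no result here rests on that test. Genes were named by the platform annotation, updated by gene identifier; where several probe sets named a locus the brightest stood for it. Named were the 3 members and the 4 genes most alike to each. List genes were named when called between the lines or for the interaction, or among the 4 largest sucrose changes of a list. ALDH22A1 and ACLA-3 were added after their values were seen. Same-numbered arrays of different groups had deviations that correlated between -0.095 and 0.139, so replicate numbers were not treated as pairs. Alternatives changed the normalization, filter, floor, variance model, weights, samples, block or scanner background.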

Additional observations from a re-analysis of the deposited data

How the results depend on the processing

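The members gave 408 results under alternatives, and 396 kept their direction and their side of the threshold. Of the 204 comparisons of the lines and interactions among them, 0 were called by limma, with 0.237 as the lowest adjusted p. The 1 call lost was the fall of ALDH2C4 in Col-7, at -0.24 without Col-7 sucrose replicate 2; over all arrays left out in turn it ran from -0.41 to -0.24. The 11 turns of direction were all of ACS differences near 0 that were never called. Without sucrose its difference between the lines was -0.03 with quantile normalization and -0.11 to 0.15 with 1 array left out. With sucrose it was -0.09 to 0.01, the interaction was -0.20 to 0.06 and the mean of both media -0.08 to 0.05 with 1 array left out. The mean of both media was 0.01 with array weights, and 0.03 when the pair of outlying arrays was removed, an alternative chosen after the data were seen. With 1 array left out, the interaction ran from 0.14 to 0.31 for ALDH2C4 and from 0.04 to 0.16 for AT4G17260. The cause of these turns and moves was not tested.

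Over all probe sets, 75 were called between the lines without sucrose. This count was 42 with no filter, 25 with only the groups compared, 46 with the scanner background and 28 to 92 with 1 array left out. With sucrose 29 were called, which became 10 with the stricter filter, 17 without a floor, 164 with array weights, 63 without both outlying arrays and 21 to 43 with 1 array left out. The interaction had 8, which became 13 with the stricter filter, 18 with a variance trend, 22 with array weights, 13 without both arrays and 4 to 19 with 1 array left out. With the replicate number as a block, a pairing the labels do not state, the count without sucrose was 41, and no call of a member changed. Among the list genes, calls for plastid acetyl-CoA use in acn1-2 went from 1 to 2 with quantile normalization or no filter. In acn1-2 the sucrose call of ALDH22A1 ended with a pseudocount (0.055), a variance trend (0.0658) and only the groups compared (0.0578), and that of AT1G34630 with array weights (0.064) and without both arrays (0.0532). The background under single probe sets was not analysed here, so how far it limits the members was not tested.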
